A study of Mus musculus with 12 samples.

Results

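The genes described here are 10 transcriptional regulators linked to the quiescent, naive-like, and memory states of T cells, namely *Tcf7*, *Lef1*, *Satb1*, *Bach2*, *Foxo1*, *Foxo3*, *Klf2*, *Klf3*, *Id2*, and *Id3*. They were chosen by gene symbol, and all 10 were found among the 32051 genes of the expression table. RNA-seq had been performed on Th9 cells, the CD4+ helper T cells that make IL-9, after polarization in vitro of naive CD4+ T cells from the spleens of C57BL/6J mice aged 6 to 8 weeks. All 4 groups were stimulated through CD3 and CD28 and received 10 ng/mL IL-4, 1 ng/mL TGF-β, and blocking antibodies to IL-12 and IFN-γ, and RNA was taken on day 4. The groups differed in the compound added, which was DMSO (the vehicle), 10 µM EpA (a cyclic peptide of fungal origin), 5 µM fatostatin (an inhibitor of SREBP, the factor that switches on lipid synthesis genes), or EpA and fatostatin together. Each group had 3 libraries. The study calls its Th9 samples with RNA-seq independent, but neither it nor the labels say whether the 3 of a group came from separate mice or cultures, so the p-values measure the spread between these libraries, which may be technical.

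A naive or resting memory T cell is kept quiet by a small set of transcription factors, and most of these are turned down once the cell is activated and divides. TCF-1 (the product of *Tcf7*) and LEF1 keep cells in a self-renewing, stem-like state. FOXO1 and FOXO3 are held out of the nucleus by the kinase AKT when growth signals are strong and otherwise switch on genes for survival, cell-cycle arrest, and homing, *Klf2* among them. KLF2 promotes exit from tissues into the blood through *S1pr1*. BACH2 represses effector genes, and SATB1 folds chromatin loops that hold T cell genes in place. The ID proteins lack a DNA-binding region and inactivate E proteins by pairing with them. In CD8+ T cells ID2 goes with effector and ID3 with memory-forming cells.

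The cells expressed the T cell marker genes in every library, with a summed level of 798 to 844 FPKM for 9 genes. FPKM, the unit of the table, scales counts by exon length and by a total for each library, so levels of different genes may be set side by side. Among B cell markers, *Ms4a1* and *Pax5* did not exceed 0.0731 and 0.0623 FPKM in any library, whereas *Cd79a* was at 0.397 to 0.981 and *Cd79b* at 4.66 to 7.43. *Il9*, the cytokine that defines the subset, averaged 54.6 ± 3.38 FPKM with DMSO (SD, n = 3 here and for every mean below), 640 ± 17.5 with EpA, 66.5 ± 5.22 with fatostatin, and 821 ± 29.7 with both compounds. Between 36019740 and 43656682 reads per library fell on the genes of the table. A gene was tested with limma on log2(FPKM + 0.1) where its mean over the 12 libraries was at least 0.1 FPKM, which held for 13733 genes and all 10 factors, and it was called at a Benjamini-Hochberg adjusted p below 0.05. An exact permutation test of 3 libraries against 3 cannot give a two-sided p below 0.1, so the p-values are those of the fit over all genes.

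*Id3* and *Klf2* were the factors that differed most with EpA, and *Foxo3* the one that differed most with fatostatin. Mean *Id3* was 9.39 ± 0.21 FPKM with DMSO and 4.67 ± 0.16 with EpA, and mean *Klf2* was 2.86 ± 0.39 and 1.24 ± 0.19. Mean *Foxo3* was 7.17 ± 0.10 FPKM with DMSO, 9.04 ± 0.49 with EpA, 11.3 ± 0.33 with fatostatin, and 13.8 ± 0.41 with both. *Tcf7*, *Lef1*, and *Satb1* were lower with EpA and higher with fatostatin, by at most 1.21 times, and *Bach2* was not called in any comparison. RNA from whole cultures cannot tell fewer cells that express a gene from less RNA per cell.

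**Figure D1:**
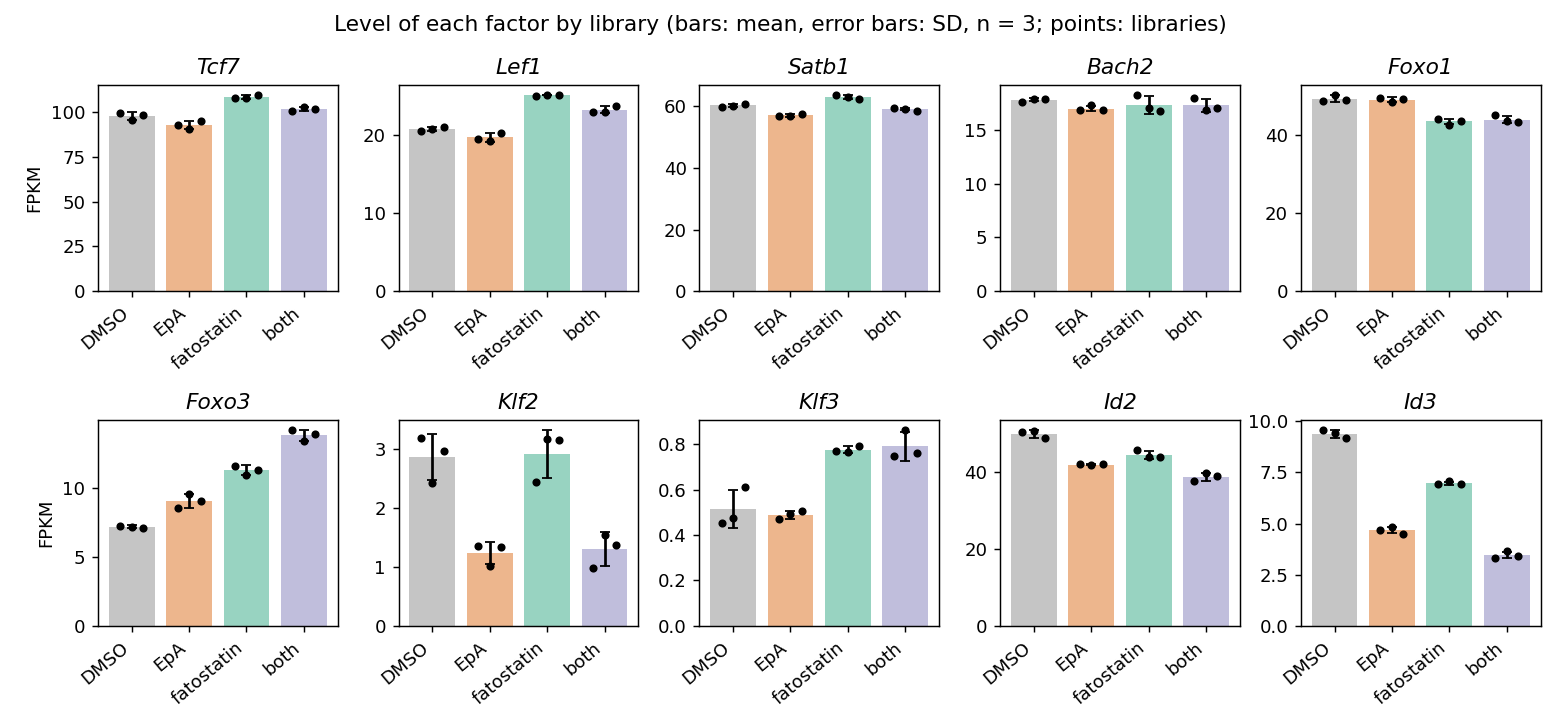
Level of each of the 10 factors in FPKM (vertical axis, linear from 0, scaled per gene) in the 4 groups. Bars are means, error bars are SDs (n = 3), and points are libraries. The *Id3* and *Klf2* points with EpA or both compounds lie below all points without EpA, and the *Foxo3* points of the 4 groups do not overlap.

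In the DMSO libraries the 10 factors spanned a wide range of levels. *Tcf7* was highest with a mean of 97.8 FPKM, above 96.9% of the tested genes on the mean over all libraries. *Satb1* (60.3 FPKM), *Id2* (50.1), *Foxo1* (49.4), *Lef1* (20.8), *Bach2* (17.8), *Id3* (9.39), *Foxo3* (7.17), *Klf2* (2.86), and *Klf3* (0.514) followed. *Id2* and *Foxo1* overlapped in their DMSO values, and no other neighbors in this order did. The order of *Id3* and *Foxo3* was turned in the other 3 groups. *Foxo3* was at 8.57 to 9.55 FPKM and *Id3* at 4.51 to 4.82 with EpA, and with both compounds *Foxo3* was at 13.4 to 14.2 and *Id3* at 3.34 to 3.65.

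*Tcf7* and *Lef1* encode closely related proteins that bind the same DNA element and work with β-catenin or with TLE corepressors. The *Tcf7* gene lies on chromosome 11 (52252371-52283014, minus strand, GRCm38). *Tcf7* was at 99.6, 95.5, and 98.4 FPKM in the DMSO libraries, 92.8, 90.5, and 95.1 with EpA, 108, 108, and 109.8 with fatostatin, and 101, 103, and 102 with both compounds. The 4 groups did not overlap, with EpA lowest and fatostatin highest. Against DMSO, the log2 fold change of *Tcf7* was -0.08 (SE 0.02, adjusted p = 0.0233) with EpA and 0.15 (SE 0.02, adjusted p = 8.08e-04) with fatostatin, 2 comparisons that share the DMSO libraries. The EpA call was lost, at an adjusted p of 0.0595 to 0.0929, when DMSO replicate 1 or 3 or EpA replicate 1 or 2 was left out.

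*Lef1* (chromosome 3, 131110471-131224356, plus strand) was at 20.5, 20.8, and 21.03 FPKM with DMSO, 19.6, 19.3, and 20.4 with EpA, 25.1, 25.2, and 25.2 with fatostatin, and 23.1, 23.0, and 23.8 with both. Its groups stood in the same order as those of *Tcf7*, with EpA lowest and fatostatin highest, and they did not overlap. *Lef1* had a log2 fold change of 0.27 (SE 0.02, adjusted p = 2.01e-05) with fatostatin against DMSO and 0.24 (SE 0.02, adjusted p = 5.33e-05) with both compounds against EpA, comparisons that share no library. With EpA against DMSO it was -0.07 (SE 0.02, adjusted p = 0.0406), a call that was lost at an adjusted p of 0.0506 to 0.146 when any DMSO library, any fatostatin library, or EpA replicate 1 or 2 was left out. The ratio of *Tcf7* to *Lef1* within a library averaged 4.71 ± 0.13 with DMSO, 4.70 ± 0.03 with EpA, 4.31 ± 0.04 with fatostatin, and 4.37 ± 0.09 with both. All 6 libraries with fatostatin had a lower ratio than the 6 without it.

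*Satb1* encodes a chromatin organizer of thymocytes and T cells (chromosome 17, 51736187-51833290, minus strand). Its level was 60.0, 60.2, and 60.8 FPKM with DMSO, 57.0, 56.8, and 57.4 with EpA, 63.7, 63.2, and 62.3 with fatostatin, and 59.4, 59.2, and 58.7 with both. The groups did not overlap although they lay within a narrow span. Against DMSO, *Satb1* changed on the log2 scale by -0.08 (SE 0.02, adjusted p = 2.81e-03) with EpA and 0.06 (SE 0.02, adjusted p = 0.0171) with fatostatin. The fatostatin call was lost at an adjusted p of 0.0522 to 0.0652 without DMSO replicate 1 or 2 or fatostatin replicate 1 or 2. The change of *Satb1* with both compounds against EpA was 0.05 (adjusted p = 0.0483) and fell out of the calls when any library but fatostatin replicate 1 was left out (adjusted p of 0.0509 to 0.136).

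*Bach2*, a repressor of effector genes (chromosome 4, 32238804-32586108, plus strand), was at 17.6, 17.9, and 17.9 FPKM with DMSO, 16.9, 17.3, and 16.8 with EpA, 18.3, 17.0, and 16.7 with fatostatin, and 18.0, 16.8, and 17.1 with both. The DMSO libraries were above the EpA libraries, and the other groups overlapped. Its log2 fold change with EpA against DMSO was -0.07 (95% CI -0.14 to 0.01, adjusted p = 0.190), and over the 5 comparisons between groups the adjusted p of *Bach2* ran up to 0.953. *Bach2* shares up to 271 exonic bases with *Bach2os*, a gene on the other strand with a mean of 0.431 FPKM, and *Foxo1*, *Klf3*, *Lef1*, and *Satb1* also overlap annotated genes. Whether strand was used in counting is not given in the sources used here, so reads in these overlaps are of uncertain origin.

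The FOXO factors moved in opposite directions with fatostatin. *Foxo1* (chromosome 3, 52268336-52353221, plus strand), the main FOXO of naive T cells, was at 48.7, 50.4, and 49.1 FPKM with DMSO, 49.7, 48.4, and 49.3 with EpA, 44.1, 42.7, and 43.7 with fatostatin, and 45.1, 43.7, and 43.3 with both. The DMSO and EpA libraries were interleaved, and all 6 libraries with fatostatin were lower. With fatostatin the fall of *Foxo1* gave a log2 fold change of -0.18 (SE 0.02, adjusted p = 2.10e-04) against DMSO and -0.16 (SE 0.02, adjusted p = 6.05e-04) in both compounds against EpA. With EpA against DMSO it was -0.01 (95% CI -0.06 to 0.04, adjusted p = 0.831).

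*Foxo3*, whose product shares targets with FOXO1 and promotes arrest and death of cells deprived of growth signals (chromosome 10, 42181841-42276755, minus strand), was at 7.26, 7.20, and 7.06 FPKM with DMSO, 8.57, 9.55, and 9.01 with EpA, 11.6, 10.9, and 11.3 with fatostatin, and 14.2, 13.4, and 13.9 with both. Each compound went with a higher level, and the 4 groups were fully apart. The log2 fold change of *Foxo3* against DMSO was 0.33 (SE 0.04, adjusted p = 1.27e-04) with EpA, 0.65 (SE 0.04, adjusted p = 1.22e-06) with fatostatin, and 0.94 (SE 0.04, adjusted p = 2.24e-08) with both. With both compounds its mean was 1.93 times that with DMSO, and the rise was the 293rd highest of 13733 genes.

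The ratio of *Foxo1* to *Foxo3* within a library averaged 6.89 ± 0.16 with DMSO, 5.45 ± 0.36 with EpA, 3.86 ± 0.05 with fatostatin, and 3.19 ± 0.08 with both. The ratios of the 4 groups did not overlap. The sum of *Foxo1* and *Foxo3* was 56.6 ± 0.86, 58.2 ± 0.17, 54.8 ± 1.06, and 57.8 ± 1.24 FPKM in the same order, so the pair differed in balance much more than in total level.

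**Figure D2:**
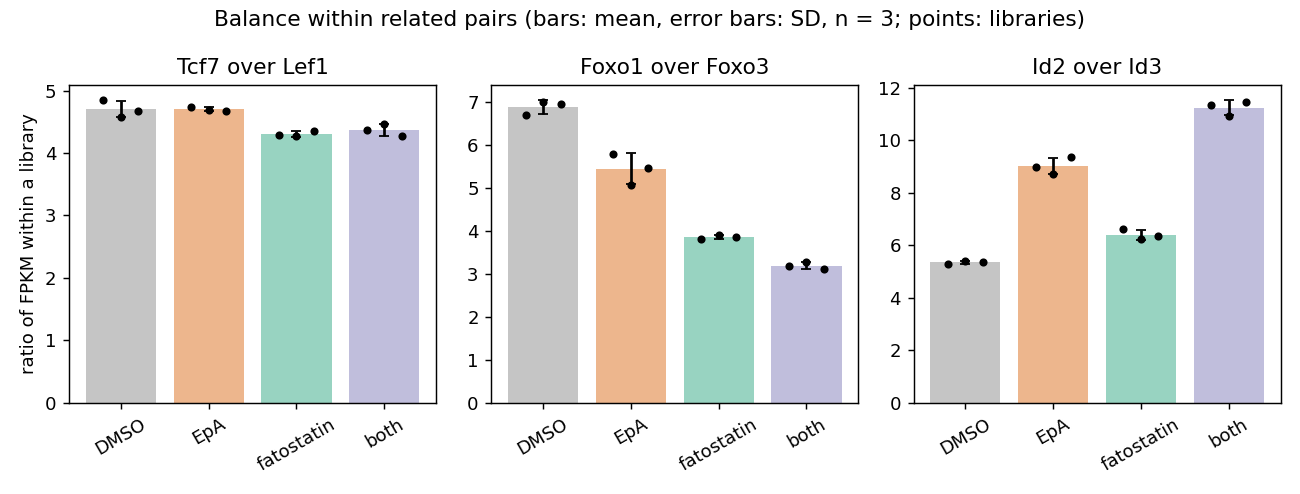
Ratio of FPKM within each library for *Tcf7* over *Lef1*, *Foxo1* over *Foxo3*, and *Id2* over *Id3* (vertical axes, linear from 0) in the 4 groups, with means as bars, SDs as error bars (n = 3), and libraries as points. *Foxo1* over *Foxo3* falls from a mean of 6.89 with DMSO to 3.19 with both compounds, and *Id2* over *Id3* rises from 5.34 to 11.2.

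The stretches just before the first exon of *Foxo1* and *Foxo3* are shown because the 2 genes moved apart with fatostatin. They are RefSeq sequence of GRCm38.p6, from chr3:52268087-52268335 (plus strand) for *Foxo1* and chr10:42276756-42276945 (minus strand) for *Foxo3*, written 5′ to 3′ along the gene. Capitals mark GC boxes (GGGCGG or its reverse complement CCGCCC), the sites of SP and KLF factors.
Foxo1: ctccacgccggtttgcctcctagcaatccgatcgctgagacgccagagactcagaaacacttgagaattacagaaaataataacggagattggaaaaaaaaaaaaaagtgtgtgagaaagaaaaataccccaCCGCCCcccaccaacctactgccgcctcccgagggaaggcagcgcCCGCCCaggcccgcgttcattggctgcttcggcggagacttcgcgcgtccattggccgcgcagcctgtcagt
Foxo3: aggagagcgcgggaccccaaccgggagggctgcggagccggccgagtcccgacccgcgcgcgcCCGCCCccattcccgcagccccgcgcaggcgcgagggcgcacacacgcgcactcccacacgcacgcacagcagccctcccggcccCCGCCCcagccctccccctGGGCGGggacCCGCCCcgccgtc
GC boxes were searched after these sequences had been read. In windows of 250 bases before to 50 after the start, the GC content was 61.3% for *Foxo1* and 75% for *Foxo3*, against a median of 52.7% over 32851 windows. The FOXO element TGTTTAC was in neither window.

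The KLF factors each moved with 1 compound. *Klf2* (chromosome 8, 72319033-72321656, plus strand) was at 3.18, 2.42, and 2.96 FPKM with DMSO, 1.35, 1.02, and 1.34 with EpA, 2.44, 3.16, and 3.14 with fatostatin, and 0.981, 1.54, and 1.37 with both. All 6 libraries with EpA were below the 6 without it, and the libraries with fatostatin overlapped those without it, both in the absence and in the presence of EpA. The log2 fold change of *Klf2* was -1.15 (SE 0.17, adjusted p = 4.81e-04) with EpA against DMSO and -1.12 (SE 0.17, adjusted p = 4.97e-04) with both compounds against fatostatin. Its mean with EpA was 0.433 times that with DMSO, the 131st lowest change of 13733 genes. With fatostatin against DMSO the log2 fold change of *Klf2* was 0.03, with a 95% CI of -0.35 to 0.40 (adjusted p = 0.945). The gene was thinly covered, by 75 to 238 reads per library with both mates of a fragment counted as reads, and its SE was the widest of the 10.

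The sequence before the first exon of *Klf2* is shown as that of the factor with the largest fall in EpA against DMSO. It is RefSeq sequence of GRCm38.p6 from chr8:72318812-72319032 on the plus strand, with capitals for GC boxes and for a MEF2-type element (A or T at its middle bases).
Klf2: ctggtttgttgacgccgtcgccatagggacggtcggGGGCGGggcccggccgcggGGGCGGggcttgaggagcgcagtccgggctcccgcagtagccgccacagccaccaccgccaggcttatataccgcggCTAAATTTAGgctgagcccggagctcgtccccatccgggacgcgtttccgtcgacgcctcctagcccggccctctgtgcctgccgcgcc
The MEF2-type element, which was also searched after the sequence had been read, was found in 0.557% of 32851 windows and in no other of the 10 factors. Over the 18 windows of the 10 factors, a GC box was present in at least 1 window of 9 factors (35.7% of all windows have one) and the KLF element CCACCC in 7 (31.5%). The E-boxes CAGCTG and CACCTG were present in 4 (16.3%) and 3 factors (20.2%), the FOXO element TGTTTAC in *Tcf7* only (3.65%), and the TCF element CTTTGAT (3.73%) and the BACH element TGAGTCA (5.20%) in none. Both strands were searched, several factors had more than 1 window, and a match in these letters is a description and not a shown binding site.

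*Klf3*, which encodes a repressor that binds the same CACCC elements as KLF2 (chromosome 5, 64803388-64832901, plus strand), was the least abundant factor. It was at 0.454, 0.477, and 0.612 FPKM with DMSO, 0.472, 0.491, and 0.504 with EpA, 0.772, 0.763, and 0.793 with fatostatin, and 0.747, 0.864, and 0.760 with both. All 6 libraries with fatostatin were above the 6 without it. The log2 fold change of *Klf3* was 0.52 (SE 0.12, adjusted p = 0.0117) with fatostatin against DMSO and 0.59 (SE 0.12, adjusted p = 5.03e-03) with both compounds against EpA. The values on this scale depend on the pseudocount at so low a level, and with 1 FPKM in place of 0.1 they were 0.23 and 0.27. The ratio of means was 1.51 and 1.62. With only the DMSO and fatostatin libraries in the fit, the adjusted p was 0.0559. With EpA against DMSO the log2 fold change of *Klf3* was -0.05 (95% CI -0.31 to 0.20, adjusted p = 0.794).

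Both ID genes fell with each compound. *Id2* (chromosome 12, 25093799-25097140, minus strand) was at 50.6, 50.9, and 48.9 FPKM with DMSO, 42.1, 41.9, and 42.1 with EpA, 45.7, 44.0, and 43.9 with fatostatin, and 37.8, 39.9, and 39.1 with both. The 4 groups did not overlap. Against DMSO, *Id2* had a log2 fold change of -0.25 (SE 0.02, adjusted p = 2.26e-05) with EpA, -0.17 (SE 0.02, adjusted p = 8.18e-04) with fatostatin, and -0.36 (SE 0.02, adjusted p = 6.86e-07) with both.

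*Id3* (chromosome 4, 136143497-136145755, plus strand) was at 9.58, 9.42, and 9.17 FPKM with DMSO, 4.69, 4.82, and 4.51 with EpA, 6.93, 7.06, and 6.93 with fatostatin, and 3.34, 3.65, and 3.41 with both. The groups were fully apart, and the libraries within each lay close together. The log2 fold change of *Id3* against DMSO was -0.99 (SE 0.04, adjusted p = 3.49e-08) with EpA, -0.42 (SE 0.04, adjusted p = 4.55e-05) with fatostatin, and -1.41 (SE 0.04, adjusted p = 1.03e-09) with both. Its mean with both compounds was 0.369 times that with DMSO, and this fall was the 73rd largest of 13733 genes. The ratio of *Id2* to *Id3* within a library averaged 5.34 ± 0.06 with DMSO, 9.01 ± 0.32 with EpA, 6.39 ± 0.19 with fatostatin, and 11.2 ± 0.28 with both, without overlap between groups.

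Markers of T cells and of other lymphocytes moved with EpA as well. The 9 T cell markers summed to 834 to 842 FPKM with DMSO, 802 to 807 with EpA, 825 to 844 with fatostatin, and 798 to 801 with both. With EpA against DMSO 5 of the 9 fell and 2 rose, with a median log2 fold change of -0.15, which is further from 0 than the changes of *Tcf7*, *Lef1*, and *Satb1*, and their part in those values was not tested. They ranged from *Cd3e* at -0.33 (adjusted p = 2.68e-06) to *Cd2* at 0.25 (adjusted p = 6.55e-07), both named after their values were seen. The summed level of 5 CD8 and NK cell markers was 17.0 to 18.0 FPKM with DMSO, 12.5 to 13.5 with EpA, 17.1 to 18.3 with fatostatin, and 12.5 to 13.6 with both. Within it *Nkg7* averaged 8.02 FPKM with DMSO and 4.53 with EpA, *Cd8a* 1.81 and 0.802, and *Cd8b1* 7.60 and 7.47, and the defining NK markers *Klrb1c* and *Ncr1* did not exceed 0.0659 and 0.0652 in any library. The 2 Treg markers summed to 2.86 to 3.11 FPKM with DMSO and 1.77 to 2.10 with EpA, and to 2.98 to 3.18 with fatostatin and 1.84 to 1.998 with both. The sum of the 5 B cell markers, mostly *Cd79b*, was 5.99 to 7.90 FPKM with DMSO and 5.20 to 6.23 with EpA. With fatostatin it was 7.55 to 8.68 FPKM, and with both compounds 6.29 to 6.89. The part of these cells in the values of *Id3*, *Klf2*, and *Id2* was not tested. The 6 myeloid markers, mostly *Cd68*, summed to 1.28 to 1.40 FPKM with DMSO, 1.27 to 1.79 with EpA, 1.57 to 2.39 with fatostatin, and 1.87 to 2.90 with both compounds, and their part in the rise of *Foxo3* was not tested.

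Counted over the 10 factors, EpA against DMSO gave 1 factor higher (*Foxo3*) and 6 lower (*Tcf7*, *Lef1*, *Satb1*, *Klf2*, *Id2*, and *Id3*), with *Bach2*, *Foxo1*, and *Klf3* not called. Of all tested genes, 27.4% were called in this comparison, 14.3% higher and 13.1% lower. The libraries of the compared groups did not overlap for 8 factors (1 higher and 7 lower), against 42.4% of all genes. With a fold of at least 1.5 as well, a threshold taken from the study's methods and applied here to the log2(FPKM + 0.1) estimate, no factor was higher (1.44% of all genes were) and *Klf2* and *Id3* were lower (1.94%). The median log2 fold change was -0.08 over the 10 factors and 0.0023 over all tested genes.

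Fatostatin against DMSO gave 5 factors higher (*Tcf7*, *Lef1*, *Satb1*, *Foxo3*, and *Klf3*) and 3 lower (*Foxo1*, *Id2*, and *Id3*), with *Bach2* and *Klf2* not called. Of all tested genes 14% were called, 7.69% higher and 6.31% lower. All 8 called factors had groups without overlap, against 31.3% of all genes. On that scale *Foxo3* passed a fold of 1.5 (1.35% of all genes were higher) and no factor did so downward (0.502%). *Klf3*, at 0.52 on that scale, did not pass it, although its ratio of mean FPKM was 1.51. The median was 0.05 over the factors and 0.0053 over all genes. Both compounds against EpA, a comparison of fatostatin in the presence of EpA, again gave 5 factors higher (*Tcf7*, *Lef1*, *Satb1*, *Foxo3*, and *Klf3*) and 3 lower (*Foxo1*, *Id2*, and *Id3*), against 16% of all genes called, 9.22% higher and 6.79% lower. These 8 also had groups without overlap, against 33.3% of all genes. *Foxo3* and *Klf3* passed a fold of 1.5 (1.51% of genes were higher) and no factor did so downward (0.481%). With 1 library left out, the log2 fold change went as low as 0.57 for *Foxo3* and 0.54 for *Klf3*, both under that fold. Of all genes called in that comparison, 57.6% were higher, against 46.5% when the libraries were scaled by median-ratio size factors. None of the 8 called factors changed direction under that scaling, and *Satb1* was no longer called (adjusted p = 0.193).

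Both compounds against fatostatin, the effect of EpA in the presence of fatostatin, gave 1 factor higher (*Foxo3*, 0.29) and 6 lower (*Tcf7*, -0.09; *Lef1*, -0.11; *Satb1*, -0.09; *Klf2*, -1.12; *Id2*, -0.20; and *Id3*, -0.99 as log2 fold changes), against 29.5% of all genes called, 16.2% higher and 13.3% lower. The groups did not overlap for these 7, against 41.4% of all genes, and *Klf2* and *Id3* passed a fold of 1.5 downward (1.86% of genes) with none upward (1.89%). Both compounds against DMSO gave 3 higher (*Lef1*, *Foxo3*, and *Klf3*) and 4 lower (*Foxo1*, *Klf2*, *Id2*, and *Id3*), against 35.5% of all genes called, 19.7% higher and 15.8% lower. Groups did not overlap for 9 factors, against 46.4% of all genes, and with a fold of 1.5 on the log2(FPKM + 0.1) scale *Foxo3* was higher (3.63% of genes) and *Klf2* and *Id3* lower (2.02%). *Klf3*, at 0.54 on that scale, had a ratio of mean FPKM of 1.54. The share of all calls that were higher was 55.5% in this comparison and 54.8% in both compounds against fatostatin, against 48.9% and 48.7% under median-ratio scaling. *Tcf7*, *Satb1*, and *Bach2* were not called in it. The *Tcf7* libraries with both compounds lay above those with DMSO, with a log2 fold change of 0.06 (adjusted p = 0.0599), and the call was made without DMSO replicate 1 or EpA replicate 2 or 3 (adjusted p of 0.0459 to 0.0471).

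**Figure D3:**
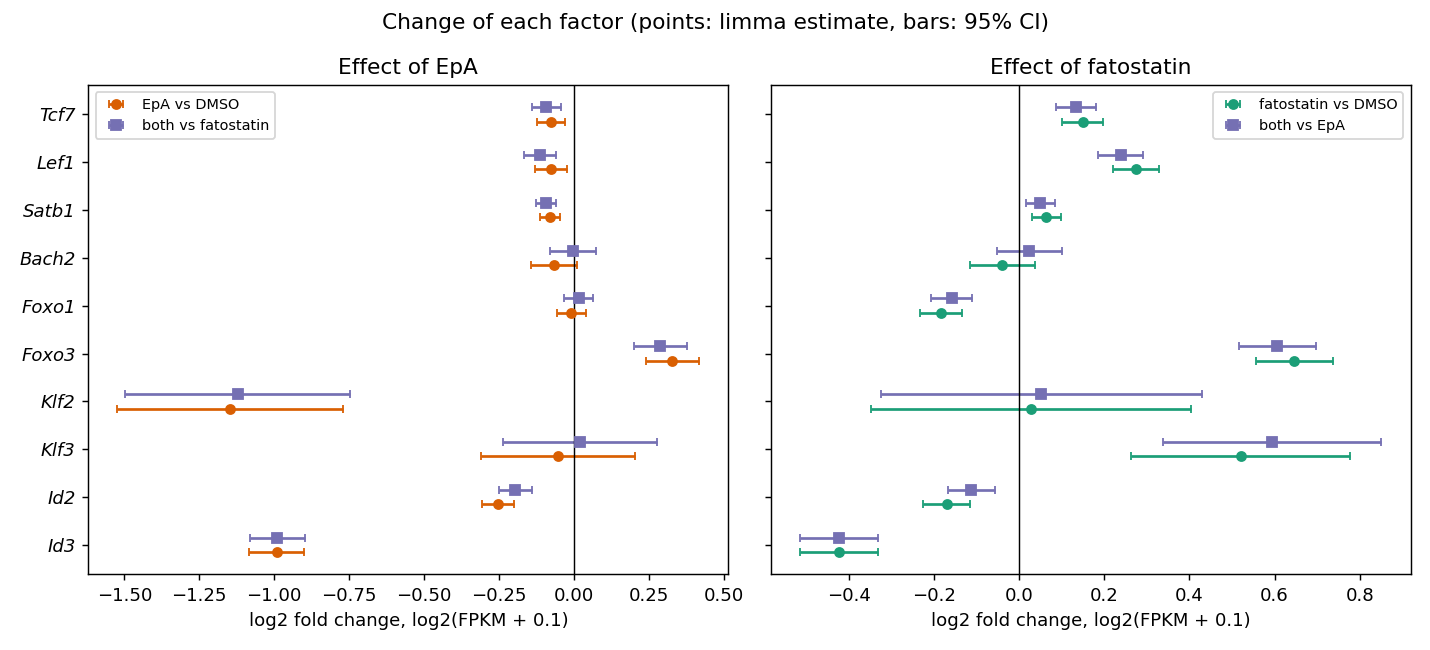
Log2 fold change of each factor, on the log2(FPKM + 0.1) scale (horizontal axis), as limma estimate with 95% confidence interval. The left panel shows EpA without (circles) and with fatostatin (squares), and the right panel fatostatin without (circles) and with EpA (squares). Circles and squares of a factor lie close together in both panels, as for *Id3* at -0.99 and -0.99 with EpA.

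Whether EpA acted differently with and without fatostatin was tested as an interaction term. None of the 10 factors was called (adjusted p of 0.761 to 0.999 with limma), none had an unadjusted p below 0.05 (the lowest was 0.128, for *Id2*), and none was called with voom on recovered reads. Of all genes, 0.0437% were called in this test and 7.89% had an unadjusted p below 0.05. The estimates ran from -0.04 for *Foxo3* to 0.07 for *Klf3* on the log2 scale. The 95% CI was -0.13 to 0.13 for *Id3* and -0.17 to 0.09 for *Foxo3*. It was -0.29 to 0.44 for *Klf3* and -0.51 to 0.56 for *Klf2*, so differences of that size could not be detected for either gene.

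Relatives of the factors from the same families were examined next, in lists written with earlier results of these data known. Of 9 tested relatives, 4 rose with EpA and none fell, whereas fatostatin gave none higher and 1 lower. Of all genes, 14.3% rose and 13.1% fell with EpA, and 7.69% rose and 6.31% fell with fatostatin. *Id1*, a further ID gene, was at 6.78 ± 0.33 FPKM with DMSO and rose to 9.59 ± 0.95 with EpA (log2 fold change 0.49, adjusted p = 3.33e-03) and to 10.7 ± 0.61 with both (0.66, adjusted p = 3.25e-04). With fatostatin alone *Id1* was at 6.47 ± 1.01 FPKM (-0.08, adjusted p = 0.688), so it rose with EpA, where *Id3* fell, and was not called with fatostatin, where *Id3* fell as well. *Klf6*, the most abundant KLF gene of the list, was at 39.9 ± 0.95 FPKM with DMSO and rose to 51.2 ± 0.70 with EpA (0.36, adjusted p = 1.76e-06), while it fell to 36.1 ± 0.91 with fatostatin (-0.15, adjusted p = 2.05e-03). *Klf10* rose with EpA by 0.13 (adjusted p = 0.0258).

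The E proteins, which the ID proteins inactivate, fell with EpA in 2 of 3 cases, where 13.1% of all genes fell. The third, *Tcf4*, named here after its values were seen, was at 0.390 FPKM with DMSO and 0.473 with EpA (0.22, adjusted p = 0.196). *Tcf12* (HEB) was at 4.06 ± 0.22 FPKM with DMSO, 3.34 ± 0.12 with EpA (-0.27, adjusted p = 2.83e-03), and 4.84 ± 0.13 with fatostatin (0.25, adjusted p = 9.40e-03). *Tcf3* (E2A) was at 36.9 ± 0.38 FPKM with DMSO and 32.6 ± 1.06 with EpA (-0.18, adjusted p = 9.996e-04). Of 10 cofactors and targets of TCF-1 and β-catenin, 2 rose and 3 fell with EpA, and 1 rose and 2 fell with fatostatin, where 27.4% and 14% of all genes were called. The corepressor *Tle1* rose with EpA (0.39, adjusted p = 2.38e-04). *Ctnnb1*, which encodes β-catenin, fell with EpA (-0.10, adjusted p = 9.65e-03) and rose with fatostatin (0.09, adjusted p = 0.0225).

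The next list held marker genes of naive and central memory T cells, among them surface receptors but also genes of intracellular and secreted proteins. Of 13 tested, 9 fell and 2 rose with EpA (13.1% and 14.3% of all genes did), and 1 fell and 5 rose with fatostatin (6.31% and 7.69%), with median log2 fold changes of -0.39 and 0.12. The chemokine receptor *Cxcr3* was at 7.02 ± 0.52 FPKM with DMSO and 2.60 ± 0.38 with EpA (-1.41, adjusted p = 1.66e-06). *Cxcr3* is not particular to naive or central memory cells, so its fall is not by itself a loss of such a marker. *Slamf6*, a marker of stem-like T cells, was at 1.76 ± 0.07 and 0.887 ± 0.03 FPKM (-0.91, adjusted p = 1.47e-05). The members that rose with EpA were *Actn1*, which encodes a cytoskeletal protein (0.26, adjusted p = 2.44e-03), and the lymph node homing receptor *Ccr7* (0.17, adjusted p = 5.62e-05), which was the most abundant gene of the list at 184 ± 0.10 FPKM with DMSO. The genes of the list thus did not all move in 1 direction.

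*S1pr1*, a well-known KLF2 target that is named here after its values were seen, was at 24.3 ± 1.31 FPKM with DMSO and 22.2 ± 0.65 with EpA (-0.13, adjusted p = 0.0265).

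**Figure D4:**
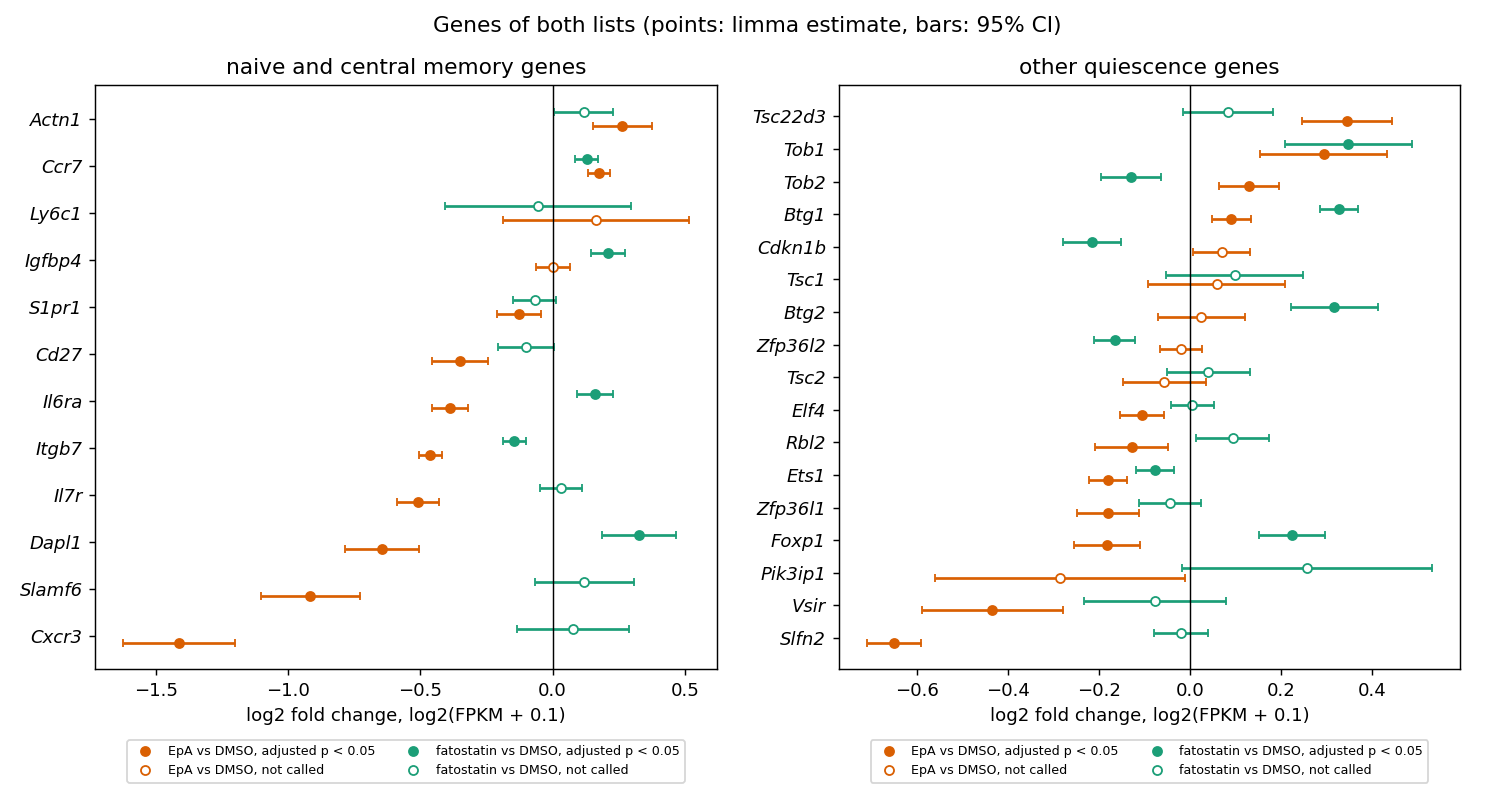
Log2 fold change, on the log2(FPKM + 0.1) scale (horizontal axes), of 12 marker genes of naive and central memory T cells (left) and of other quiescence genes (right), as limma estimates with 95% confidence intervals for EpA and fatostatin against DMSO. Filled points had an adjusted p below 0.05. In the left panel 8 of the 12 genes are lower with EpA and called. The lowest is *Cxcr3* at -1.41, a gene not particular to naive or central memory cells.

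Of 17 other genes of quiescence, 4 rose and 7 fell with EpA, and 4 rose and 4 fell with fatostatin, against 27.4% and 14% of all genes called. *Slfn2*, which guards the resting state of T cells, was at 88.0 ± 2.25 FPKM with DMSO and 56.0 ± 0.78 with EpA (-0.65, adjusted p = 3.49e-08). The checkpoint receptor gene *Vsir* fell by 0.43 with EpA (adjusted p = 8.62e-04) and *Foxp1* fell by 0.18 (adjusted p = 1.80e-03) on the log2 scale, whereas *Tsc22d3* rose by 0.35 (adjusted p = 1.87e-04). The antiproliferative genes *Btg1*, *Btg2*, and *Tob1* rose with fatostatin by 0.33, 0.32, and 0.35 (adjusted p = 5.93e-07, 5.14e-04, and 3.55e-03), whereas their relative *Tob2* had a log2 fold change of -0.13 (adjusted p = 0.0137). With EpA, *Tob1* and *Tob2* rose by 0.29 and 0.13 (adjusted p = 5.17e-03 and 7.57e-03). *Cdkn1b*, which encodes a cell cycle inhibitor, had a log2 fold change with fatostatin of -0.21 (adjusted p = 4.39e-04).

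Of 16 target genes of FOXO factors, 3 rose and 9 fell with EpA, 6 rose and 1 fell with fatostatin, and 7 rose and 1 fell with both compounds against EpA, where 27.4%, 14%, and 16% of all genes were called. The receptor for IL-7, *Il7r*, was at 15.3 ± 0.69 FPKM with DMSO, 10.7 ± 0.25 with EpA (-0.51, adjusted p = 2.19e-06), and 15.6 ± 0.48 with fatostatin (0.03, adjusted p = 0.625). The log2 fold change of the stress gene *Sesn1* with EpA was -0.42 (adjusted p = 4.50e-05), while the autophagy gene *Gabarapl1* rose by 0.53 on that scale (adjusted p = 6.21e-07) and *Irs2* by 0.36 (adjusted p = 1.56e-04). *Bcl2l11*, which encodes the death protein BIM, rose with fatostatin by 0.50 (adjusted p = 5.68e-04). Of 13 regulators in the PI3K and AKT pathway that acts on FOXO proteins, 1 rose and 4 fell with EpA, and 1 rose and 3 fell with fatostatin, again against 27.4% and 14% of all genes called. *Sgk1*, a kinase that phosphorylates FOXO proteins, was at 23.2 ± 0.72 FPKM with DMSO, 31.4 ± 0.54 with EpA (0.44, adjusted p = 8.58e-07), and 19.0 ± 0.20 with fatostatin (-0.28, adjusted p = 4.24e-05).

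Of 13 factors of effector and terminal differentiation, 4 rose and 6 fell with EpA, and 3 rose and 1 fell with fatostatin, where 27.4% and 14% of all genes were called. *Bhlhe40* was at 27.3 ± 0.44 FPKM with DMSO and 43.8 ± 1.07 with EpA (0.68, adjusted p = 7.22e-09), and *Hif1a* rose with EpA by 0.40 (adjusted p = 1.27e-07). *Tbx21*, the Th1 factor T-bet, was at 3.91 ± 0.05 FPKM with DMSO and 2.70 ± 0.26 with EpA (-0.52, adjusted p = 4.49e-04). No gene of these lists was called by limma in the test of whether fatostatin altered the effect of EpA, whereas voom on recovered reads called 1, *Irf4* (0.14 on the log2 scale, adjusted p = 0.0486), which is named here after its value was seen.

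The genes whose pattern over the 12 libraries was most like that of *Id3*, *Klf2*, and *Foxo3*, the 3 factors with the widest span, were ranked among 10297 genes by the root mean square difference of log2 values centered on each gene's mean. For *Foxo3* they were *Ccng1* (0.0607), *Btla* (0.0644), *Cep170b* (0.0667), *Tex15* (0.0673), and *Ptp4a3* (0.0797). *Ccng1*, for example, was at 111 FPKM with DMSO, 143 with EpA, 171 with fatostatin, and 203 with both. For *Id3* they were *Klrd1* (0.131), *Cxcr6* (0.138), *Pou2af1* (0.142), *Itgae* (0.149), and *Ighm* (0.164). *Klrd1* is also a gene of NK and CD8+ T cells, and *Pou2af1* and *Ighm* are best known from B cells. Mean *Ighm* was 46.04 FPKM with DMSO and 23.1 with EpA, well above the summed B cell markers, and the part of such cells in the values of *Id3* and *Klf2* was not tested. For *Klf2* they were *Il9r* (0.206), *Ighm* (0.209), *Evl* (0.210), *Rab37* (0.211), and *Epas1* (0.220). The 12 libraries form 4 groups of 3, so likeness here is mostly likeness of 4 group levels.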

How the data were processed

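Th9 cells of 4 groups were sequenced (3 libraries each). Trim Galore, then HISAT2 against GRCm38, then featureCounts were run by the authors, who deposited FPKM values per gene. The annotation release and strand setting are not given in the sources used here. Of 32352 lines, 301 repeated a gene, leaving 32051. FPKM + 0.1 was log2-transformed, and the 13733 genes whose mean reached 0.1 FPKM were fitted in limma 3.58.1 (R 4.3.3) over all 4 groups with a mean-variance trend. All p-values were adjusted by Benjamini-Hochberg over all tested genes. FPKM are not counts, so no count model was the main test. Gene positions and exon lengths were those of GENCODE on GRCm38. FPKM times exon length was divided by a constant per library, which was fitted so that low values came out whole. This gave whole reads for 98.4% to 98.6% of values (tolerance 0.05), and voom on these reads was an alternative. Alternatives also covered the pseudocount, minimum level, scaling, trend, groups in the fit, replicate block, and each library left out. Scripts were tested on simulated data. The replicate numbers were not used as a pairing in the main fit.

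The members and gene lists were chosen with earlier results of these data known. Named genes were all members and, per list and comparison, at most 3 higher and 3 lower with the largest called change and a mean of at least 1 FPKM. Some list genes that this rule would name are not reported here. The 3 members of widest span were given the 5 genes most like them.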

Additional observations from a re-analysis of the deposited data

How the results depend on the processing

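Of 1304 recomputed values for single factors, 1226 kept their direction and side of the threshold. A further 41 lost a call, 5 gained one, and 32 turned direction, none of the last from a called value. Many of these values could not change direction. Leaving out a library outside the compared groups, or the trend, alters only the p-value. With a fold of at least 1.5 as well, the factors called higher and lower numbered 0 and 2 for EpA against DMSO, 1 and 0 for fatostatin against DMSO, 2 and 0 for both compounds against EpA, 0 and 2 for both against fatostatin, and 1 and 2 for both against DMSO. Factors higher with fatostatin numbered 3 with only the compared groups in the fit, which took out *Klf3* (adjusted p = 0.0559) and *Satb1* (0.0725), and 3 for both compounds against EpA with a minimum mean of 1 FPKM, where *Klf3* was no longer tested and *Satb1* reached 0.0519. Leaving out 1 library at a time gave 4 to 6 factors lower for EpA against DMSO and 4 to 5 higher for fatostatin against DMSO. It gave 4 to 5 higher for both against EpA and 3 to 4 higher for both against DMSO. No other count by adjusted p alone changed. Counts with the fold of 1.5 did change. The *Klf3* estimate then crossed that fold, at 0.45 to 0.63 for fatostatin against DMSO, 0.54 to 0.63 for both against EpA, and 0.47 to 0.65 for both against DMSO. *Foxo3* did so at 0.57 to 0.65 for both against EpA. *Tcf7* lost its EpA call with only the compared groups (0.0684), and *Lef1* with these (0.0881) and as TPM (0.0519). With eBayes without the trend, the EpA calls of *Tcf7* (0.0675) and *Lef1* (0.0700) were lost, leaving 4 factors lower, and so were those of *Satb1* with fatostatin (0.0738) and in both compounds against EpA (0.139). Both compounds against DMSO called *Tcf7* as TPM (0.0246) and *Satb1* with median-ratio size factors (-0.05, 0.0245).

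The interaction of *Id3* turned to -0.0029 with a pseudocount of 0.01, -0.0092 with median-ratio size factors, and -0.0035 with voom, against 0.0018. Leaving out 1 library moved the estimates that turned direction over these ranges. For EpA against DMSO they were -0.12 to 0.0586 (*Klf3*) and -0.0181 to 0.00582 (*Foxo1*). For fatostatin against DMSO the range of *Klf2* was -0.0816 to 0.15, and for both against EpA it was -0.0721 to 0.23 (*Klf2*) and -0.0037 to 0.0428 (*Bach2*). For both against fatostatin they were -0.0373 to 0.0561 (*Klf3*), -0.0321 to 0.0340 (*Bach2*), and -0.0012 to 0.0281 (*Foxo1*). For the interaction they were -0.0335 to 0.0024 (*Tcf7*), -0.10 to 0.20 (*Klf2*), -0.0371 to 0.14 (*Klf3*), and -0.0357 to 0.0277 (*Id3*). None of these was called, and the cause was not tested.

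Of 94 other list genes, 1 was called for the interaction with voom and 0 in the main analysis, and of all genes 20 and 6. Voom on recovered reads called 2079 genes higher and 1982 lower for EpA against DMSO and 1287 and 1009 for fatostatin against DMSO. Deviations of libraries with the same replicate number correlated by -0.0472 to 0.0744 over 18 pairs. For libraries with other numbers the range was -0.0859 to 0.0492 over 36 pairs. These overlapping ranges show no sign of pairing, but they cannot tell whether libraries shared a mouse or culture. With the number as a replicate block, the factors higher with both compounds against EpA numbered 4, since *Satb1* was not called (adjusted p = 0.0761), the other counts of called factors were unchanged, and the interaction gave 0 genes. *Klf2* with 75 to 238 reads was the factor most limited by depth.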
